A study of Mus musculus with 6 samples.

Results

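The chemokine and chemokine receptor genes of the mouse were examined in cultures that the study describes as endothelial cells. The cultures came from the stria vascularis (SV), the vascularised epithelium of the cochlear lateral wall. The genes were chosen by gene symbol alone, which gave 60 of the 24421 genes in the table. They were the *Ccl*, *Cxcl*, *Cx3cl1* and *Xcl1* ligand genes and the *Ccr*, *Cxcr*, *Cx3cr1* and *Ackr* receptor genes. RNA was sequenced from 3 cultures of *Nhe6*-knockout (KO) mice and 3 cultures of wildtype (WT) mice without any treatment, and the question of the study was which expression differences go with a leakier endothelium after loss of *Nhe6*. *Nhe6* encodes a sodium and proton exchanger of endosomes, and the knockout mice carry a targeted disruption of it. All mice were 10 to 12 days old. The labels give C57BL/6N as the strain background of both genotypes, while the study's methods name C57BL/6J. The methods also state that the SV was taken out together with the spiral ligament. Each culture pooled this tissue from several mice, so a library is not 1 animal. In a bulk culture, fewer cells of a type and less RNA per cell cannot be told apart.

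Chemokines are small secreted proteins that direct the migration of leukocytes and of some other cells along a gradient. They are grouped as CC, CXC, CX3C and XC ligands by the spacing of the first cysteines of the mature protein, and most of them signal through receptors that couple to inhibitory G proteins. The atypical receptors (*Ackr* genes) bind chemokines without that signal and take them up for degradation, which shapes the gradient. Endothelial cells present chemokines on their surface to leukocytes in the blood, and the SV also holds resident macrophages beside its capillaries.

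The family spacing can be read from the genes themselves. The following coding stretches come from the longest coding sequence of each gene in GENCODE M21 on GRCm38. They are written 5′ to 3′ on the coding strand with introns left out. Capitals mark the codons of the first cysteines from codon 21 on. The genes shown are the main soluble CXC ligand, both membrane-bound ligands and the CC ligands with the smallest p.
*Cxcl12*: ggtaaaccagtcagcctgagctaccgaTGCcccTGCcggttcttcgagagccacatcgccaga
*Cxcl16*: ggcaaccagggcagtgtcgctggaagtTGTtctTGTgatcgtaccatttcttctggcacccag
*Cx3cl1*: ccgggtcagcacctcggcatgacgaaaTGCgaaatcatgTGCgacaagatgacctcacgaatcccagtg
*Ccl28*: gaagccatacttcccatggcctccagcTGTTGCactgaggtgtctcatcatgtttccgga
*Ccl9*: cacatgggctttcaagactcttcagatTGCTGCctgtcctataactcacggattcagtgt
These stretches lie at chr6:117168716-117171543 (*Cxcl12*, plus strand), chr11:70459100-70459162 (*Cxcl16*, minus strand), chr8:94772331-94778092 (*Cx3cl1*, plus strand), chr13:119623933-119645924 (*Ccl28*, plus strand) and chr11:83575899-83576381 (*Ccl9*, minus strand), and all but that of *Cxcl16* span an intron. The cysteine codons are adjacent in the CC ligands, have 1 codon between them in the CXC ligands and 3 in *Cx3cl1*. Of 37 CC, CXC and CX3C ligand genes with a GENCODE coding sequence, 36 had the spacing of the family in their name by this search. The exception was *Ccl25*, whose match began at codon 92 of a coding sequence of 228 codons. Whether that match lies in the mature protein was not examined. *Xcl1* was not searched, since XC ligands lack this pair.

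Gene reads per library ranged from 25587097 to 29126232. A normalized count is the read count scaled by edgeR's TMM factors to the mean library size, fold changes are KO over WT, and SE is short for standard error. WT replicate 2 lay apart on the first principal component of all genes, at 112 against -30.4 to -6.49 for the other libraries. KO replicates 1 and 2 were much more alike than any other libraries, with a chi-square per degree of freedom of 4.91 against 90.1 to 398 for the other pairs. That is still more than sampling noise allows, and they were kept as separate samples. The value cannot show whether they came from separate cultures, since it excludes sampling noise only. Of the defining endothelial markers, *Cldn5* had no read in any library, *Pecam1* had 1 to 8 reads per library, and *Cdh5* had 189 to 250 reads in KO and 2566 to 5039 in WT libraries (log2 fold change -4.15, edgeR adjusted p = 0.0133). A mean of 100 or more normalized counts over all 6 libraries was reached by 7 of 20 listed endothelial markers and 14 of 15 fibroblast markers. It was also reached by 7 of 15 mural markers and 6 of 15 macrophage markers in the table. Summed normalized counts of the fibroblast list had a mean of 265200 in KO and 250100 in WT libraries, against 22840 and 21090 for the endothelial list. Such sums do not give shares of cells. Markers of several cell types were thus present, and the cell type that each chemokine came from was not measured.

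At least 1 read was counted for 42 of the 60 chemokine and receptor genes, and 20 had enough reads to be tested. Ligands made up 18 of the 20 tested genes, 11 of them CC, 6 CXC and 1 CX3C. The other two were the atypical receptors *Ackr3* and *Ackr4*, and none of the 17 typical receptors was tested. The 18 genes without a read were *Ccl1*, *Ccl20*, *Ccl21a*, *Ccl21b*, *Ccl21c*, *Ccl24*, *Ccl26*, *Ccl27b*, *Ccr6*, *Ccr8*, *Ccr9*, *Cxcl3*, *Cxcl9*, *Cxcl11*, *Cxcl15*, *Cxcr1*, *Cxcr5* and *Xcl1*. The copies of *Ccl21* and of *Ccl27* are nearly identical, and reads placed at several sites were not counted on a gene, so their values are uncertain.

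The chemokine RNA of these cultures was mostly *Cxcl12*. It held 94.1% to 94.5% of all reads of the 60 genes in the KO libraries and 84.2% to 88.0% in the WT libraries. *Cxcl12*, *Cx3cl1*, *Ackr3* and *Cxcl16* together held 98.1% to 99.4% in every library. The 60 genes together had 6523, 6217 and 5946 RPM (reads scaled to the gene reads of each library) in KO replicates 1 to 3 and 3817, 863.7 and 2831 in WT replicates 1 to 3. Each KO library was above each WT library in this sum. Without *Cxcl12* the groups overlapped, since the sum of normalized counts was 10300, 9930 and 8747 in the KO and 13030, 2915 and 12640 in the WT libraries. Scaled by exon length, *Cxcl12* was also the highest of the 20 tested genes, at a mean level of 704 RPKM (reads scaled to exon length and library size) in KO and 269.4 in WT cultures. *Cx3cl1* followed at 58.5 and 64.3 and *Ackr3* at 15.2 and 12.9 on that scale.

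**Figure D1:**
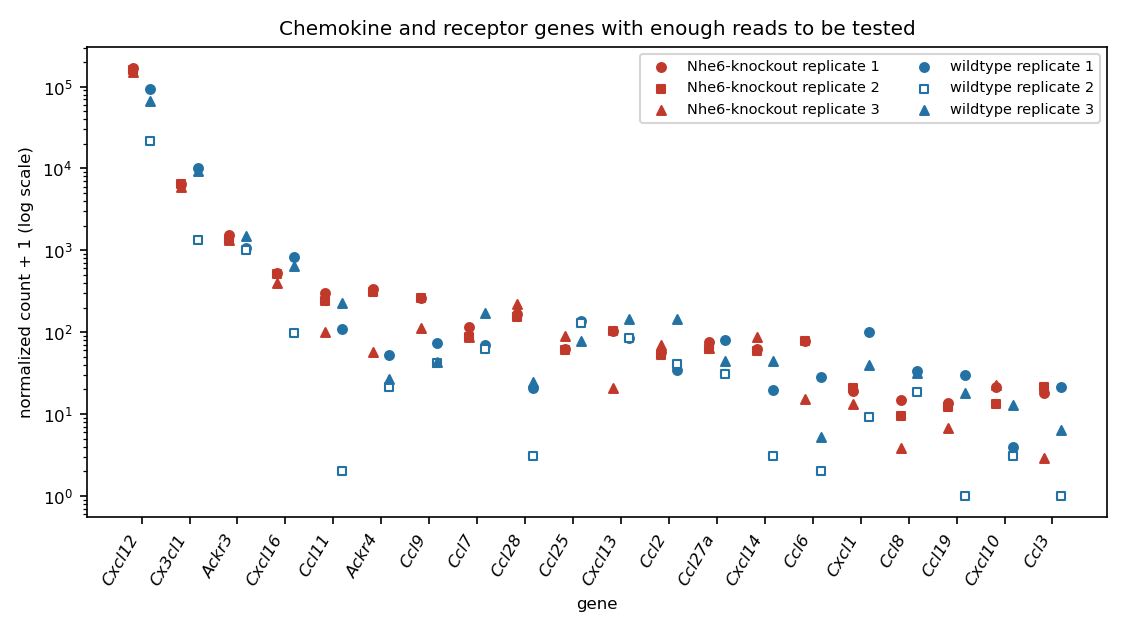
Normalized count plus 1 (log scale) of the 20 tested chemokine and receptor genes in each library, with *Nhe6*-knockout in red and wildtype in blue, ordered by mean level. *Cxcl12* stands far above the rest, and wildtype replicate 2 (open squares) has the lowest value of the 6 libraries for 16 of the 20 genes.

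Chemokine genes varied more between the WT than between the KO libraries, as did all genes tested. The median SD of log2(normalized count + 1) over the 20 genes was 1.13 in WT and 0.32 in KO libraries, against 0.34 and 0.15 over all 13479 genes tested. The likeness of KO replicates 1 and 2 and the distance of WT replicate 2 enter these SDs. A spread that belongs to a genotype cannot be told apart from them. WT replicate 2 had the lowest of the 6 values for 16 of the 20 genes, which is 80.0%, and the highest for 0, while over all tested genes it had the lowest value for 26.5% and the highest for 26.8%. Summed macrophage markers were also lowest in that library, at 99.02 normalized counts against 1592 to 4271 in the other libraries, and the part of macrophages in the low chemokine values was not tested.

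None of the 20 genes passed the test of the genotypes after adjustment over all genes tested. In edgeR's quasi-likelihood test, 0 of the 20 had an adjusted p under 0.05, and 0.0668% of all genes tested did. At an unadjusted p under 0.05 there were 5 of 20, with *Ccl28*, *Ccl9*, *Ackr4* and *Cxcl12* higher and *Ccl8* lower in KO cultures, against 11.8% of all genes. DESeq2's Wald test called 3 of the 28 genes for which it gave an adjusted p, *Ccl28*, *Ccl9* and *Ackr4*, all higher, against 3.99% of all genes. Without WT replicate 2, edgeR called 1 of 22 genes, *Ccl28*, against 2.88% of all genes. Each KO library was above each WT library for 6 of the 20 genes (*Ccl28*, *Ackr4*, *Ccl9*, *Cxcl12*, *Cxcl10* and *Cxcl14*), where the share over all genes was 10.3%. Each KO library was below each WT library for 1 gene, *Ccl8*, against 9.57% of all genes. The log2 fold change was above 0 for 11 genes and below 0 for 9, with a median of 0.30 against -0.02 over all genes. Without WT replicate 2 that median was 0.04, and 5 genes lay below both remaining WT libraries in every KO library, *Ccl8*, *Ccl19*, *Cx3cl1*, *Cxcl1* and *Cxcl16*, where the share over all genes was 19.1%.

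**Figure D2:**
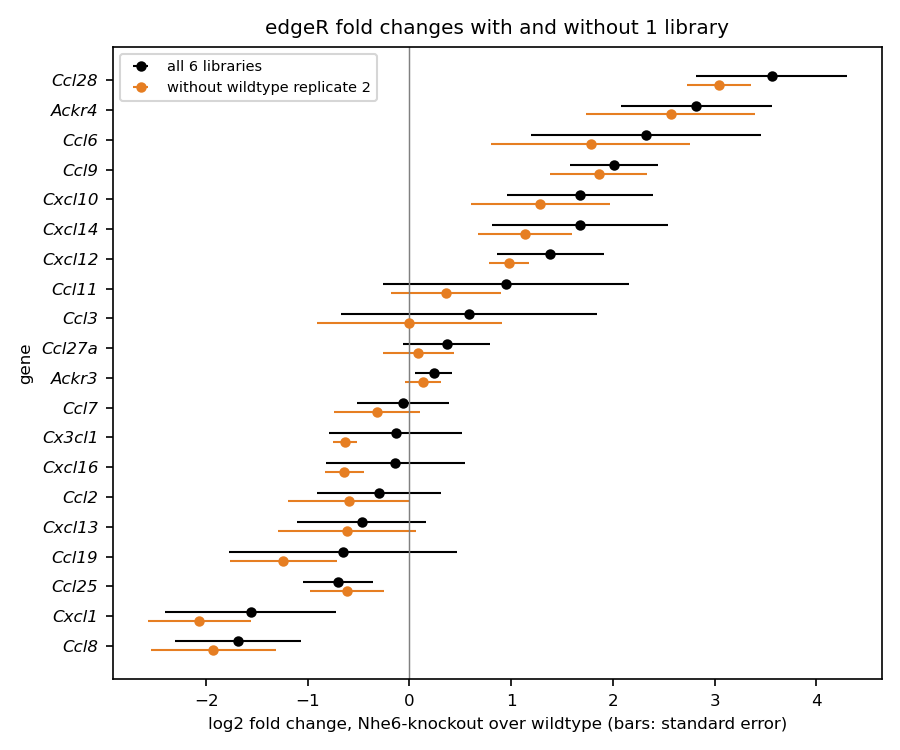
Log2 fold change (*Nhe6*-knockout over wildtype) of each tested chemokine and receptor gene from edgeR with all 6 libraries (black) and without wildtype replicate 2 (orange), with bars for 1 standard error. *Ccl28* is the highest at 3.56 and *Ccl8* the lowest at -1.69 with all libraries, and *Cx3cl1* goes from -0.14 to -0.63 when that library is left out.

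*Cxcl12*, the ligand of *Cxcr4* and *Ackr3* that retains and guides blood-forming and vascular cells, lies at chr6:117168535-117181367. It had 166900, 158300 and 150900 normalized counts in KO replicates 1 to 3 and 93430, 21460 and 67290 in WT replicates 1 to 3. The groups did not overlap, and WT replicate 2 was by far the lowest. The means were 158700 ± 8007 in KO and 60730 ± 36430 in WT cultures (SD, n = 3 each), a 2.61-fold ratio and a log2 fold change of 1.39 (SE 0.52, edgeR adjusted p = 0.373). Without WT replicate 2 the log2 fold change was 0.98 (SE 0.20, edgeR adjusted p = 0.0651), and over all alternatives the adjusted p lay between 0.0651 and 0.878.

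*Ackr3* (chr1:90203980-90216751) encodes the atypical receptor that removes *Cxcl12* protein from the tissue. It had 1516, 1343 and 1348 normalized counts in KO and 1057, 1010 and 1497 in WT libraries. WT replicate 3 lay among the KO libraries, so the groups overlapped. The log2 fold change was 0.24 (SE 0.18, edgeR adjusted p = 0.669). *Cxcr4*, the signalling receptor of *Cxcl12*, had 13, 22 and 8 reads in KO and 10, 7 and 2 in WT libraries and was too low to be tested.

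The 250 bases upstream of the RefSeq start of *Cxcl12* (chr6:117168285-117168534, plus strand) are shown because this gene held most of the reads, with capitals for the GC box letters GGGCGG on either strand.
*Cxcl12*: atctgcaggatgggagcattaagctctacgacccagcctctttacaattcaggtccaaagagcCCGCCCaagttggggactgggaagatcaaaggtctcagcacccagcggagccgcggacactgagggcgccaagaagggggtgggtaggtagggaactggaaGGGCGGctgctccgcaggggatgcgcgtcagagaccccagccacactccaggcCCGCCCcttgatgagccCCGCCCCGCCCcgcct
The letters occurred at 5 places, 2 of which share a base, and 33.0% of 32536 mouse promoter windows of the same length hold them at least once. A match of letters is a description and not evidence that a protein binds there.

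*Cx3cl1* and *Cxcl16* encode the chemokines that are made as membrane proteins and can be shed from the cell surface. *Cx3cl1* (fractalkine, chr8:94772009-94782427) had 6511, 6477 and 6012 normalized counts in KO and 10160, 1341 and 9393 in WT libraries. The KO values lay close together between 1 low and 2 high WT libraries. Its log2 fold change was -0.14 (SE 0.66, edgeR adjusted p = 0.956), and without WT replicate 2 it was -0.63 (SE 0.12, adjusted p = 0.0541, with 0.0541 to 0.999 over all alternatives). *Cxcl16* (chr11:70453983-70459984), the ligand of *Cxcr6* and a scavenger receptor for oxidised lipids, had 523.4, 511.9 and 394.6 in KO and 834.8, 95.93 and 644.9 in WT libraries. The pattern over the libraries was that of *Cx3cl1*, with a log2 fold change of -0.14 (SE 0.68, edgeR adjusted p = 0.956) that became -0.64 (adjusted p = 0.149) without WT replicate 2. Of the exon bases of *Cxcl16*, 552 also belong to *Zmynd15* on the opposite strand, and the strand setting of the counting is not given in the sources used here. The receptors were near the limit of counting, with at most 19 reads of *Cx3cr1*, which marks macrophages and microglia, and at most 3 of *Cxcr6* in any library.

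*Ccl28*, a CC ligand of mucosal epithelia that attracts cells with *Ccr10* and *Ccr3*, had the largest fold change of the 20 genes. It lies at chr13:119623819-119654359 and had 166.7, 153.3 and 216.7 normalized counts in KO and 19.55, 2.063 and 23.53 in WT libraries. The lowest KO library was far above the highest WT library. The means were 179 ± 33.4 in KO and 15.1 ± 11.4 in WT cultures (SD, n = 3 each), an 11.8-fold ratio and a log2 fold change of 3.56 (SE 0.74, edgeR adjusted p = 0.125). Without WT replicate 2 it was 3.04 (SE 0.31, edgeR adjusted p = 0.0196), and DESeq2's adjusted p was 6.89e-06. Across all alternatives the adjusted p lay between 6.89e-06 and 0.494. Scaled by exon length it remained a low gene, at 1.34 RPKM in KO and 0.113 in WT cultures. Its receptors *Ccr10* and *Ccr3* had at most 18 and 4 reads in any library.

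The tested gene nearest to *Ccl28* was *Gm7120* (now *Tmem267*), which was among the 9 genes that differed between the genotypes over all genes. *Gm7120* (chr13:119488039-119611059) ends 12.8 kb before the start of *Ccl28* and lies on the same strand. It had 821.7, 763.6 and 888.5 normalized counts in KO and 150.5, 153.7 and 178.6 in WT libraries, with no overlap and little spread within a genotype. Its log2 fold change was 2.36 (SE 0.16, edgeR adjusted p = 0.0133). The other tested genes within 500 kb with a position had log2 fold changes of -0.23 to 1.11 and none had an adjusted p under 0.05, with *Hmgcs1* 36.0 kb beyond *Ccl28* at -0.12. These neighbours were chosen for their position after the value of *Ccl28* was known. *Nnt* is a gene of chromosome 13 that carries a deletion in C57BL/6J but not in C57BL/6N mice. It had no single position in the annotation used, so it could not be placed among these neighbours. *Nnt* had 1224, 1276 and 1392 normalized counts in KO and 3553, 4512 and 3816 in WT libraries (log2 fold change -1.61, edgeR adjusted p = 0.0226). The loss of *Nhe6* and a difference in strain background between the genotypes cannot be told apart for *Ccl28* in these libraries.

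**Figure D3:**
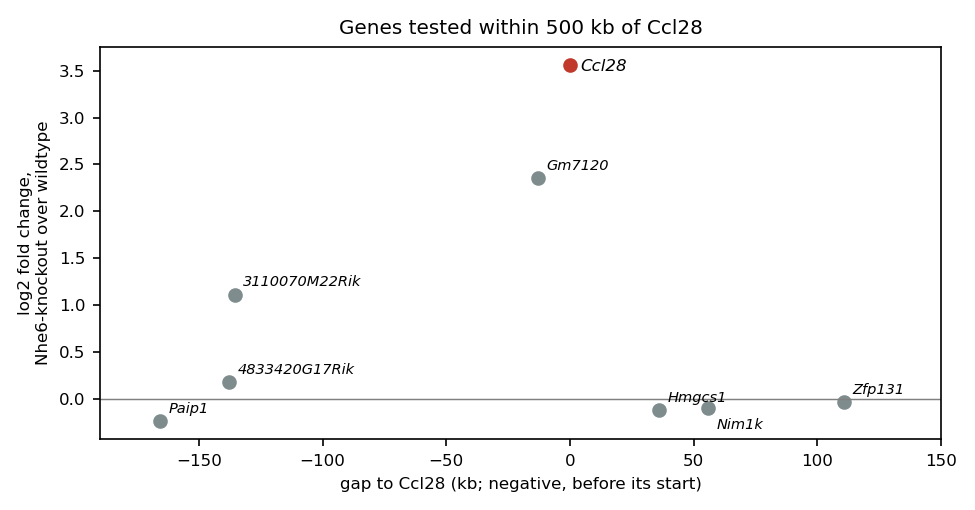
Log2 fold change (*Nhe6*-knockout over wildtype, edgeR) of the tested genes with a position within 500 kb of *Ccl28*. The horizontal axis is their gap to *Ccl28* in kb, with negative gaps for genes before its start. *Ccl28* at 3.56 and *Gm7120* at 2.36 stand above the other genes shown, which lie between -0.23 and 1.11. *Nnt* had no single position in the annotation used and is not shown.

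The 250 bases upstream of *Ccl28* (chr13:119623569-119623818, plus strand) are shown because it had the largest change, and capitals mark the GC box letters, the only motif of 6 searched that was found in this window.
*Ccl28*: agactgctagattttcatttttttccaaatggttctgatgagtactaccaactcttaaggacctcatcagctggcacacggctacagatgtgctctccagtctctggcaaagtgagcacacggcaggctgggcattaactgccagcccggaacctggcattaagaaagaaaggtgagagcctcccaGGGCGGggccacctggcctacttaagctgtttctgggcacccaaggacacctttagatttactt

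*Ccl9*, *Ccl6* and *Ccl3* are CC ligands of 1 cluster on chromosome 11 that macrophages and other myeloid cells make, and *Ccr1* is a receptor of theirs. *Ccl9* (chr11:83572919-83578636) had 260.1, 259.2 and 112.6 normalized counts in KO and 72.34, 41.26 and 42.78 in WT libraries. The groups did not overlap, although KO replicate 3 was well below the other KO libraries. The means were 211 ± 84.9 and 52.1 ± 17.5 (SD, n = 3 each), a 4.03-fold ratio and a log2 fold change of 2.01 (SE 0.44, edgeR adjusted p = 0.139), while DESeq2's adjusted p was 8.09e-04. Over all alternatives the adjusted p lay between 8.09e-04 and 0.581. With KO replicates 1 and 2 summed, the log2 fold change was 1.83 (edgeR adjusted p = 0.577), and DESeq2 was not run on that sum.

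*Ccl6* and *Ccl3* fell outside the rule for values in every library and are given because they lie beside *Ccl9*, a choice made after their values were seen. *Ccl6* (chr11:83587882-83593087), 9.25 kb from *Ccl9*, had 76.44, 76.18 and 14.19 normalized counts in KO and 27.37, 1.031 and 4.278 in WT libraries. *Ccl3* had 16.99, 20.44 and 1.892 in KO and 20.53, 0 and 5.347 in WT libraries. For both genes the genotypes overlapped, and KO replicate 3 was much lower than the other KO libraries. The log2 fold change was 2.33 (SE 1.13, edgeR adjusted p = 0.483) for *Ccl6* and 0.58 (adjusted p = 0.898) for *Ccl3*.

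Macrophage markers also varied widely from library to library, although the study's methods say that cultured cells were purified by fluorescence-activated cell sorting. Summed over the 15 listed markers in the table, all of which had a read, they came to 3908, 4271 and 1592 normalized counts in KO and 3902, 99.02 and 2011 in WT libraries. Of the defining markers, *Csf1r* had 77, 93 and 52 reads in KO and 124, 14 and 60 in WT libraries, and *Ptprc* had 35, 31 and 7 in KO and 18, 0 and 21 in WT libraries. *Adgre1* had 38 to 69 reads in each library other than WT replicate 2, where it had 0. The markers did not rank the libraries alike. WT replicate 1 had more *Csf1r* reads but fewer *Ptprc* reads than KO replicates 1 and 2, so equal sums need not mean equal numbers of macrophages. The part of macrophages in the *Ccl9* and *Ccl6* values was not tested. None of the 14 macrophage markers tested had an edgeR p under 0.05, also unadjusted, and their median log2 fold change was 0.92.

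**Figure D4:**
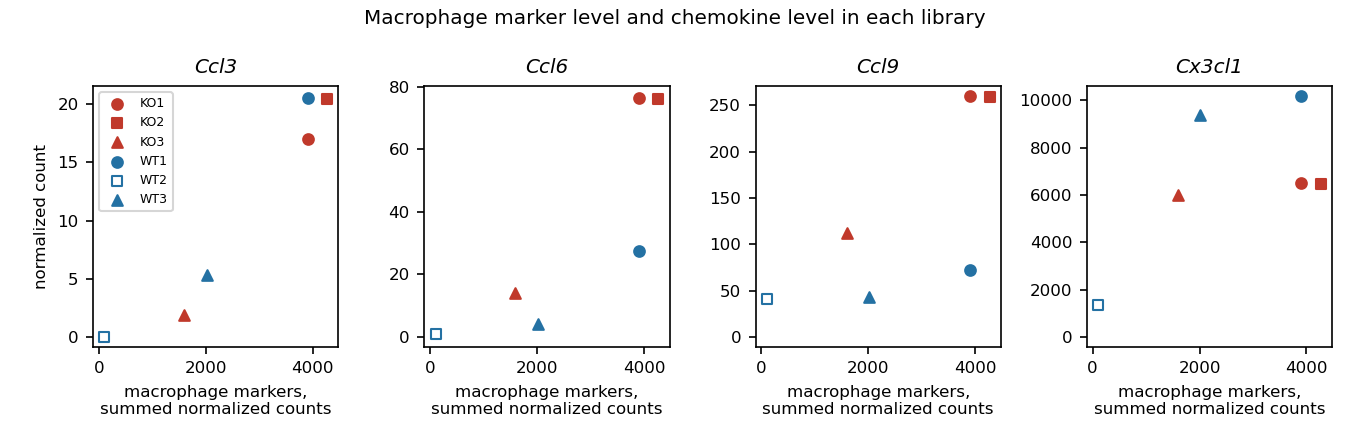
Normalized count of *Ccl3*, *Ccl6*, *Ccl9* and *Cx3cl1* in each library against the summed normalized count of 15 macrophage markers, with *Nhe6*-knockout (KO) in red and wildtype (WT) in blue. *Ccl9* lies at 260.1, 259.2 and 112.6 in KO replicates 1 to 3 and at 72.34, 41.26 and 42.78 in WT replicates 1 to 3. Wildtype replicate 2 has almost no marker level and the lowest *Cx3cl1* count.

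The 250 bases upstream of *Ccl9* (chr11:83578637-83578886, minus strand) hold the AP-1 letters TGANTCA and the TATA letters TATAAA on either strand, in capitals, with 2 of the 3 TATA matches overlapping each other.
*Ccl9*: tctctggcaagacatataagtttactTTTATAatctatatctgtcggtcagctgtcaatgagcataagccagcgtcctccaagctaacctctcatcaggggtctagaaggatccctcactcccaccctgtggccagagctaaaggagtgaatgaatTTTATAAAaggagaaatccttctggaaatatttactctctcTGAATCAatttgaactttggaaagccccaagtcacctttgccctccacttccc
Of all mouse promoter windows of this length, 6.73% hold the AP-1 letters and 12.3% the TATA letters.

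*Ackr4* encodes the atypical receptor that removes *Ccl19*, *Ccl21* and *Ccl25*, the ligands of *Ccr7* and *Ccr9*. It lies at chr9:104084157-104126933 and had 335.5, 305.6 and 55.83 normalized counts in KO and 51.81, 20.63 and 25.67 in WT libraries. No library overlapped, but KO replicate 3 was only just above WT replicate 1. The means were 232 ± 154 and 32.7 ± 16.7 (SD, n = 3 each), with a log2 fold change of 2.82 (SE 0.75, edgeR adjusted p = 0.214), and DESeq2's adjusted p was 0.00232. Over all alternatives the adjusted p lay between 0.00232 and 0.693. With KO replicates 1 and 2 summed, the log2 fold change was 2.52 (edgeR adjusted p = 0.670), and DESeq2 was not run on that sum. *Acad11* on the opposite strand shares 479 exon bases with *Ackr4*, and its log2 fold change was -0.13 (edgeR adjusted p = 0.873).

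The ligands of *Ackr4* were lower on average in KO cultures, without passing the test. *Ccl25*, named for its role in the thymus, had 61.57, 59.45 and 88.0 normalized counts in KO and 136.9, 126.9 and 75.93 in WT libraries. The genotypes overlapped through KO replicate 3 and WT replicate 3, and the log2 fold change was -0.70 (SE 0.34, edgeR adjusted p = 0.488). Of the exon bases of *Ccl25*, 204 lie opposite *Elavl1*. *Ccl19* ranged from 5.68 to 12.7 normalized counts in KO and from 0 to 29.3 in WT libraries (log2 fold change -0.65, edgeR adjusted p = 0.872), and the sign for *Ccl19* changed with the method. No read of *Ccl21a*, *Ccl21b* or *Ccl21c* was counted.

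The ligands of the other cluster on chromosome 11, *Ccl2*, *Ccl7*, *Ccl11* and *Ccl8*, attract monocytes and eosinophils and had log2 fold changes of both signs. *Ccl11* (eotaxin) had 303.6, 240.6 and 98.41 normalized counts in KO and 107.5, 1.031 and 224.6 in WT libraries. The genotypes overlapped widely, and the log2 fold change was 0.95 (SE 1.21, edgeR adjusted p = 0.817). *Ccl8* (chr11:82115185-82116799), a monocyte attractant, was the only gene of the 20 that was lower in each KO library, with 13.8, 8.361 and 2.839 in KO and 32.26, 17.53 and 31.01 in WT libraries. Its log2 fold change was -1.69 (SE 0.62, edgeR adjusted p = 0.367). *Ccl2*, the main monocyte attractant, had a mean of 59.1 ± 8.88 in KO and 73.0 ± 62.9 in WT cultures, and *Ccl7* had 95.4 ± 15.8 and 99.8 ± 60.03 (SD, n = 3 each). For both the WT spread came from replicate 3, at 145.4 and 169.0, and the KO libraries lay within the WT range for *Ccl2* and *Ccl7*. Their log2 fold changes were -0.30 and -0.06, and the sign changed with the method.

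Of the remaining CXC ligands, *Cxcl13*, the attractant of B cells, had 103, 102.2 and 19.87 normalized counts in KO and 83.09, 83.55 and 145.4 in WT libraries. KO replicate 3 was lower than all other libraries, and the log2 fold change was -0.47 (SE 0.63, edgeR adjusted p = 0.829). *Cxcl10* and *Cxcl14* are given because the genotypes did not overlap, a choice made after their values were seen. *Cxcl10* (chr5:92346638-92348889), an attractant of T cells that interferons induce, had 20.17, 12.08 and 21.76 in KO and 2.933, 2.063 and 11.76 in WT libraries. WT replicate 3 came within 1 normalized count of the lowest KO library, and the log2 fold change was 1.68 (SE 0.72, edgeR adjusted p = 0.434). *Cxcl14* (chr13:56288643-56296551), a ligand of epithelia and fibroblasts, had 61.57, 58.53 and 86.11 in KO and 18.57, 2.063 and 43.85 in WT libraries. Its log2 fold change was 1.67 (SE 0.87, edgeR adjusted p = 0.514). *Cxcl1*, which attracts neutrophils through *Cxcr2*, had a mean of 16.6 ± 3.81 in KO and 49.2 ± 47.1 in WT cultures (SD, n = 3 each), and 1 WT library lay below all KO libraries.

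The 250 bases upstream of *Cxcl10* (chr5:92348890-92349139, minus strand) are shown because they held 3 of the motifs searched. From the 5′ end, capitals mark the ISRE letters (GAAA, any 2 bases, GAAA), bound by interferon factors, the kappaB letters (GGGA, any 4 bases, CC) at 2 places, and the AP-1 letters TGANTCA.
*Cxcl10*: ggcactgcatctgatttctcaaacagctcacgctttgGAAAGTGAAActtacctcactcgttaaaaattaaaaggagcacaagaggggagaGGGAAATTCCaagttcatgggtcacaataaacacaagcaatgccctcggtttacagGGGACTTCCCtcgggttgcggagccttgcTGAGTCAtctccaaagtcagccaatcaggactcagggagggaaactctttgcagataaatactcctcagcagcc
A promoter window was found in RefSeq for 16 of the 20 tested genes. Both strands were searched, and no match to 1 motif overlapped a match to another motif in these windows. The kappaB letters were present in 5 of the 16, against 17.7% of all windows, the ISRE letters in 3, against 2.98%, and the GAS letters (TTC, any 3 bases, GAA), bound by STAT factors, in 1, against 7.04%. The AP-1 letters were present in 3, the TATA letters in 7 and the GC box letters in 5 of the 16. A gene was counted if any of its windows matched, and *Ccl25* and *Ccl27a* have several windows. The shares over all windows are per window, so the units differ.

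The receptors that signal were at the limit of counting. Of the 17 typical receptors, 12 had a read and 5 had none, and the highest count of any of them was 22 reads, of *Cxcr4*. *Cx3cr1* had 8, 9 and 7 reads in KO and 19, 0 and 11 in WT libraries, *Ccr1* had 5, 9 and 1 in KO and 9, 6 and 5 in WT libraries, and *Ccr10* had 7, 10 and 3 in KO and 18, 0 and 5 in WT libraries. WT replicate 2 had no read of *Cx3cr1* or *Ccr10*, which allows up to 3 reads by counting error alone. Among the ligands below the test's minimum, *Ccl5* reached 20 reads, *Ccl17* 11 and *Cxcl17* 10 in a library. The atypical receptors *Ackr1* and *Ackr2* had at most 2 and 6 reads.

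Other genes of the pathway were described by 6 lists with 112 tested genes. In edgeR's test 0 of the 112 had an adjusted p under 0.05, and at an unadjusted p under 0.05 there were 17 higher and 5 lower genes in KO cultures, where the shares over all genes were 6.14% and 5.71%. Interferon signalling was the list with most of them, with 10 of 19 tested genes higher and 1 lower at an unadjusted p under 0.05 and a median log2 fold change of 1.08, against 6.14% higher, 5.71% lower and a median of -0.02 over all genes. DESeq2 called 13 of the 125 pathway genes for which it gave an adjusted p, 9 of them in this list, against 3.99% of all genes. The summed level of the list was 40010 and 39420 in KO replicates 1 and 2 but 22000 in KO replicate 3, against 20040 to 22880 in WT libraries. The 2 KO libraries that stood high were those that were most alike, and KO replicate 3 lay in the WT range.

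The other lists are to be read against the 11.8% of all genes with an unadjusted p under 0.05 in either direction. Receptor signalling, with G proteins, arrestins and kinases, had 2 genes higher and 1 lower of 30 at an unadjusted p under 0.05, and a median log2 fold change of 0.03. Chemokine cleavage and retention, with proteases and surface proteoglycans, had 1 higher of 16 (median 0.06), and NF-kappaB, the pathway that drives inflammatory chemokines, had 3 higher of 29 (median 0.05). The 8 tested chemokine companions, *Cmtm* genes and related receptors, had 2 lower and none higher (median -0.003). Inflammatory cytokines and adhesion had 1 higher and 1 lower of 10. *Csf1* of that list, the growth factor of macrophages, had a mean of 27690 ± 2221 in KO and 13840 ± 3087 in WT cultures (SD, n = 3 each). Its log2 fold change was 1.00 (edgeR adjusted p = 0.123), and DESeq2's adjusted p was 5.08e-04.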

How the data were processed

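The authors isolated RNA (RNeasyPlus), made stranded poly(A) libraries (TruSeq) and sequenced them on an Illumina NextSeq. The submitters' processing notes name bcl2fastq 2.20.0.422, STAR 2.7.7a, HTSeq 0.13.5, DESeq2 1.26.0 and mm10 (GRCm38), and the annotation they counted on is not given in the sources used here. The authors deposited raw read counts per gene symbol without normalization. The 5 summary lines for reads not counted on a gene (22.2% of all reads) were left out.

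Genotypes were compared over all 6 libraries with edgeR 4.0.16 in R 4.3.3 (filterByExpr with a minimum count of 10, TMM factors from 0.976 to 1.03, quasi-likelihood test, two-sided). P-values were adjusted by Benjamini-Hochberg over 13479 genes, with a threshold of 0.05. The SE is the log2 fold change over the square root of the F statistic. With 3 cultures against 3, the smallest exact two-sided permutation p is 0.1, and p-values measure the spread between these cultures. Lengths, positions and coding stretches came from GENCODE M21 and promoter windows from RefSeq, both on GRCm38. Values in every library were given for genes that reached a mean of 100 normalized counts in a genotype, an unadjusted p under 0.05, or an adjusted p under 0.05 in any alternative. The genes, lists and rules were chosen with earlier results of these data known. Limits for a count of 0 cover counting error only. Alternatives were DESeq2 size factors, upper-quartile normalization, no filter, at least 10 counts in every library, DESeq2 1.42.0, limma-voom (limma 3.58.1), a replicate block and each library left out. Sums of KO replicates 1 and 2 were added after seeing the data. The fits were tested on simulated data. The level of the targeted gene is not reported here.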

Additional observations from a re-analysis of the deposited data

How the results depend on the processing

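The number of chemokine and receptor genes with an adjusted p under 0.05 was 0 with all edgeR settings, limma-voom and summed KO replicates, 3 with DESeq2, and 0 to 1 with 1 library left out. For the other pathway genes it was 0 of 112, 13 of 125 with DESeq2 and 0 to 1 of 112 to 116 with 1 library left out. Genes with no overlap numbered 6 to 9 above and 1 to 5 below with 1 library left out, with the 5 without WT replicate 2 and the 9 without WT replicate 3, while the share of all genes rose to 11.4% to 19.3% above and 10.9% to 19.1% below. The replicate numbers did not pair the cultures, with correlations of 0.198, -0.204 and 0.0937 between same-numbered cultures, and 1 KO culture was closest to its own number.

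Of 271 values of the 20 genes over 14 alternatives, 249 kept direction and side of the threshold, 4 passed it and 18 changed sign, in 6 genes. With limma-voom the log2 fold change was 0.58 for *Ccl19*, 0.036 for *Ccl2*, 0.083 for *Ccl7*, 0.33 for *Cx3cl1* and 0.33 for *Cxcl16*, and with the block it was 0.012 for *Ccl2*, 0.084 for *Ccl7*, 0.25 for *Cx3cl1* and 0.24 for *Cxcl16*. With 1 library left out it ran from -1.24 to 0.20 for *Ccl19*, -0.65 to 0.68 for *Ccl2*, -0.0016 to 2.25 for *Ccl3*, -0.32 to 0.54 for *Ccl7*, -0.63 to 0.23 for *Cx3cl1* and -0.64 to 0.36 for *Cxcl16*. The cause was not tested. A minimum of 10 counts in every library removed the lowest genes. The typical receptors had too few reads to be tested over all 6 libraries.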
